A study of Mus musculus with 2 samples.

Results

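The genes that build cholesterol and fatty acids were followed through the main cell classes of the mouse retina. The set holds 31 named genes of the 31053 in the count matrices, and every one of the 31 was found by its symbol. It has 7 enzymes of the mevalonate steps, 12 enzymes from squalene to cholesterol, 6 genes of sterol sensing and transport, and 6 genes of fatty acid synthesis. The data are 2 single-cell RNA libraries made with 10x droplets. The PBS library came from control mice given an intravenous injection of phosphate-buffered saline. The NaIO3 library came from mice given 20 mg/kg of sodium iodate, an oxidising agent toxic to the retinal pigment epithelium, and both groups were taken on day 7. Retinas of 6 mice were pooled into each library, so there is 1 library per group and no replicate. The labels give no strain, sex or age.

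Both libraries are labelled CD11b+ microglia, but the bead selection for CD11b is described for the NaIO3 cells alone, and most cells of both libraries carried photoreceptor RNA. A cell entered a class when at least 3 of that class's marker genes had a UMI (a counted RNA molecule) and no other class had more than 1, with rod markers not held against other classes. None of the 31 genes is a marker. By this marker gate, 4660 of 5573 PBS cells and 4277 of 9261 NaIO3 cells were rod-like. Cone-like cells numbered 113 and 134, bipolar-like 13 and 146, Müller-glia-like 40 and 94, and microglia-like 13 and 1028, each pair given as PBS and NaIO3. The classes are written without the suffix from here on. The gate turned away many deep cells: 38.1% of NaIO3 cells were in no gate, with a median of 7981 UMIs, against 13% of PBS cells with a median of 5134.5. Classes taken from clusters are therefore given beside the gated ones. The libraries held 26605477 and 75981079 UMIs, their kept cells had medians of 2486 and 2930 UMIs, and their median mitochondrial shares were 7.23% and 2.53%. The 2 libraries shared 23 barcodes among the kept cells.

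Cholesterol is built from acetyl-CoA through mevalonate, isoprenoid units and squalene. Its synthesis is switched on when the transcription factor SREBP2, encoded by Srebf2, is carried by the escort protein SCAP to the Golgi and cut, and the INSIG proteins hold the complex back when sterols are plentiful. Fatty acid synthesis starts from the same acetyl-CoA and is driven in many tissues by SREBP1, encoded by Srebf1. In the retina, Müller glia are the main supporting glia, and photoreceptors keep renewing lipid-rich outer segment membranes.

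Promoters of members that stood apart in the counts are shown before the values, to let a reader see the letters that sterol genes share. RefSeq promoter sequences on GRCm38.p6 were matched for 25 of the 31 genes, leaving Fdps, Fdft1, Sqle, Stard4, Scd1 and Scd2 unmatched. The 250 bases before each start were searched on both strands for the sterol regulatory element TCACCCCAC, the same element with an open base (TCACNCCAC), the NF-Y box CCAAT and the Sp1 box GGGCGG. Any match of the strict element is also a match of the open one. Elements that differ in any other letter or lie outside this window are not counted, and a match is not a shown binding site. Genes with more than 1 promoter counted once. The strict element was found in 1 of 25 members, Hmgcs1, against 0.555% of 27025 genes, and the open form in the same gene alone, against 1.225%. CCAAT was found in 80% of the 25 members and in 37.5% of all genes. GGGCGG was found in 84% and 35.4%. The 6 promoters below run 5′ to 3′ toward the start, with matched letters of either strand in capitals. Hmgcs1, Idi1, Srebf2 and Insig1 were lower in NaIO3 Müller cells taken from clusters, with 32 PBS cells. By the marker gate these genes had too few UMIs in Müller glia to be called. Acly and Elovl6 were higher in NaIO3 rods.
Hmgcs1 (chr13:119690101-119690350, plus strand): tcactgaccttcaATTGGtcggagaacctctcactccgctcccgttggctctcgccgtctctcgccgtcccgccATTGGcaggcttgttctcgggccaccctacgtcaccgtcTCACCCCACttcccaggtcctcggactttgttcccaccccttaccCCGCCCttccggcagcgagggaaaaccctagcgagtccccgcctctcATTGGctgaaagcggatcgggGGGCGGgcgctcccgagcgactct
Idi1 (chr13:8885356-8885605, plus strand): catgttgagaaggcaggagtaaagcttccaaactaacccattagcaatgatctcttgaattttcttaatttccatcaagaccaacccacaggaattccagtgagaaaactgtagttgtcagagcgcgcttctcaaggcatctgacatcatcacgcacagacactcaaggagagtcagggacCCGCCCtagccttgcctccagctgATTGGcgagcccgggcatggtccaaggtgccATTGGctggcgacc
Srebf2 (chr15:82147019-82147268, plus strand): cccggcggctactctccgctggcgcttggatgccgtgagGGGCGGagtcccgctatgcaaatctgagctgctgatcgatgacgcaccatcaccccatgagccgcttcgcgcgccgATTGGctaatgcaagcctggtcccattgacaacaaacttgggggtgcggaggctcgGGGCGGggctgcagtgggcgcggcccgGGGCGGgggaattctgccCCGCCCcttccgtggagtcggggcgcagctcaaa
Insig1 (chr5:28071162-28071411, plus strand): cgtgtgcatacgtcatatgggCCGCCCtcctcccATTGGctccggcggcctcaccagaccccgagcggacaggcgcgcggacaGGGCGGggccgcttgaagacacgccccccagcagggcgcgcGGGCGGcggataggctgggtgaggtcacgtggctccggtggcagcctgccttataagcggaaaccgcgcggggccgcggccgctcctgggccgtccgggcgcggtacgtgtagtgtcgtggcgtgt
Acly (chr11:100528001-100528250, minus strand): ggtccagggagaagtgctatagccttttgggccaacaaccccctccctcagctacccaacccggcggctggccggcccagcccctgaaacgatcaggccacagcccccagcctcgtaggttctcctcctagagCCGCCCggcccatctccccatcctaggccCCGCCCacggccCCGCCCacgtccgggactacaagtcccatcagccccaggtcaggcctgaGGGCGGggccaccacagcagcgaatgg
Elovl6 (chr3:129532136-129532385, plus strand): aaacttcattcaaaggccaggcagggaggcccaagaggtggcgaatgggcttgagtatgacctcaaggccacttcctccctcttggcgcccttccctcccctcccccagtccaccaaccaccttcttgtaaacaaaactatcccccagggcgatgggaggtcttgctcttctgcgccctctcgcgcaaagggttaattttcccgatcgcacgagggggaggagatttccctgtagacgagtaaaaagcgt
Hmgcs1 held 3 NF-Y boxes, 2 Sp1 boxes and the sterol element. Idi1 held 2 NF-Y boxes and 1 Sp1 box, and Srebf2 held 1 and 4. Insig1 held 1 NF-Y box and 3 Sp1 boxes. Acly had 4 Sp1 boxes and no NF-Y box, and Elovl6 matched none of these letters in this window. Among other members higher in NaIO3 rods, Lss and Lbr held 1 and 2 NF-Y boxes, and 1 of the 2 promoters of Pmvk held 1. The directions named here come from different cells. Hmgcs1, lower in the Müller cluster, was higher in NaIO3 rods by less than 1.5-fold, and Idi1 was nearly level there. A link between these letters and direction was not tested.

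In rods, the fatty acid genes were higher in the NaIO3 library, and the sterol enzymes did not move together. Levels are UMIs summed over the cells of a class per 1000000 UMIs of that class (CPM). Differences are ratios of NaIO3 to PBS with a 95% interval that covers counting error only, since a single library per group allows no test of the treatment. The 6 fatty acid genes summed to 175 CPM in PBS rods and 378 CPM in NaIO3 rods, a ratio of 2.16 (2.05 to 2.27). The 19 sterol enzymes summed to 449 and 532 CPM, a ratio of 1.18 (1.14 to 1.23). The 6 sensing and transport genes summed to 191 and 162 CPM, a ratio of 0.847 (0.798 to 0.899). The median of all genes tested in rods was itself 1.19, so a ratio of 1.18 is not taken as particular to the sterol enzymes. That median counts each gene once while a sum weights genes by their UMIs, so they are unlike measures.

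Of the 31 genes, 29 passed the count filter in rods, which asked for a mean of 5 CPM and 10 expected UMIs. Of these, 9 were at least 1.5 times higher in NaIO3 rods, where 27.8% of 9501 genes were, and 4 were at least 1.5 times lower, where 9.59% were. The members' median ratio was 1.12. TMM scaling brought the median of all genes from 0.25 to 0.07 on the log2 scale, and then 7 members were higher, where 18.3% of all genes were, and 5 lower, where 14.6% were.

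Among the mevalonate enzymes, Pmvk and Fdps moved in opposite directions. Pmvk, which adds the second phosphate to mevalonate, had 501 UMIs in PBS rods and 1074 in NaIO3 rods. Its level was 36.9 and 90.9 CPM, a ratio of 2.46 (2.21 to 2.74). Fdps, which makes farnesyl diphosphate from the isoprenoid units, had 805 and 287 UMIs, or 59.3 and 24.3 CPM. It was 2.44-fold lower in NaIO3 rods (2.13 to 2.80). Mvd, the decarboxylase between these steps, was at 8.47 and 5.08 CPM, 1.67-fold lower (1.21 to 2.32), and was short of 1.5-fold among rods taken from clusters, at a ratio of 0.687. Acat2 and Hmgcs1, which open the pathway, were higher by less than 1.5-fold, with ratios of 1.40 (1.07 to 1.83) and 1.30 (1.14 to 1.47). Mvk was at 0.766 (0.60 to 0.975), and Idi1 had nearly the same level in both libraries, 25.3 and 25.4 CPM.

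Of the 12 enzymes from squalene to cholesterol, all but Tm7sf2 passed the filter in rods. Of these, 3 were past 1.5-fold higher, where 27.8% of all genes were, and 1 was past 1.5-fold lower, where 9.59% were. These counts were near the shares of all genes. Lss, which closes squalene epoxide into the sterol ring, was at 11 CPM in PBS cells and 21.9 CPM in NaIO3 cells, a ratio of 1.98 (1.62 to 2.44). Lbr, a sterol reductase that is also a lamin receptor of the nuclear envelope, was at 21.6 and 39.3 CPM, a ratio of 1.81 (1.56 to 2.11). Fdft1, the squalene synthase, was at 22.9 and 35.8 CPM, a ratio of 1.56 (1.35 to 1.82). Dhcr7, which carries out the last reduction to cholesterol, was at 17.4 and 10.2 CPM, 1.70-fold lower (1.36 to 2.13). Sqle, Ebp and Sc5d were higher by less than 1.5-fold, with ratios of 1.33, 1.35 and 1.24 and intervals above 1. The intervals of Cyp51, Msmo1, Nsdhl and Hsd17b7 included 1, and Tm7sf2 did not pass the filter, at 5.30 and 3.72 CPM.

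Srebf1 was the sensing gene that stood furthest apart in rods, and it was lower. It had 842 UMIs in PBS and 367 in NaIO3, or 62.0 and 31.1 CPM, 2.0-fold lower (1.76 to 2.26). Scap was at 57.1 and 53.3 CPM, and Scap, Srebf2, Insig1 and Insig2 had intervals that included 1. Stard4, which carries cholesterol between membranes, was at 5.67 and 9.05 CPM, a ratio of 1.6 (1.18 to 2.17).

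In the fatty acid group, 4 of the 5 genes that passed the filter were past 1.5-fold higher in rods, where 27.8% of all genes were. Elovl6, which lengthens palmitate to stearate, had 56 UMIs in PBS and 243 in NaIO3, or 4.12 and 20.6 CPM. Its ratio of 4.99 (3.72 to 6.79) was higher than that of any other member tested in rods. Acaca, the acetyl-CoA carboxylase that makes malonyl-CoA, was at 52.3 and 131 CPM, a ratio of 2.52 (2.30 to 2.75). The desaturase Scd2 was at 47.1 and 98.5 CPM, a ratio of 2.09 (1.90 to 2.31), and Acly, which makes cytosolic acetyl-CoA from citrate, was at 59.9 and 113 CPM, a ratio of 1.89 (1.73 to 2.07). Fasn, the synthase that uses malonyl-CoA, did not join them, at 11 and 10.9 CPM. Scd1 was below the filter, with 10 and 32 UMIs.

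**Figure D1:**
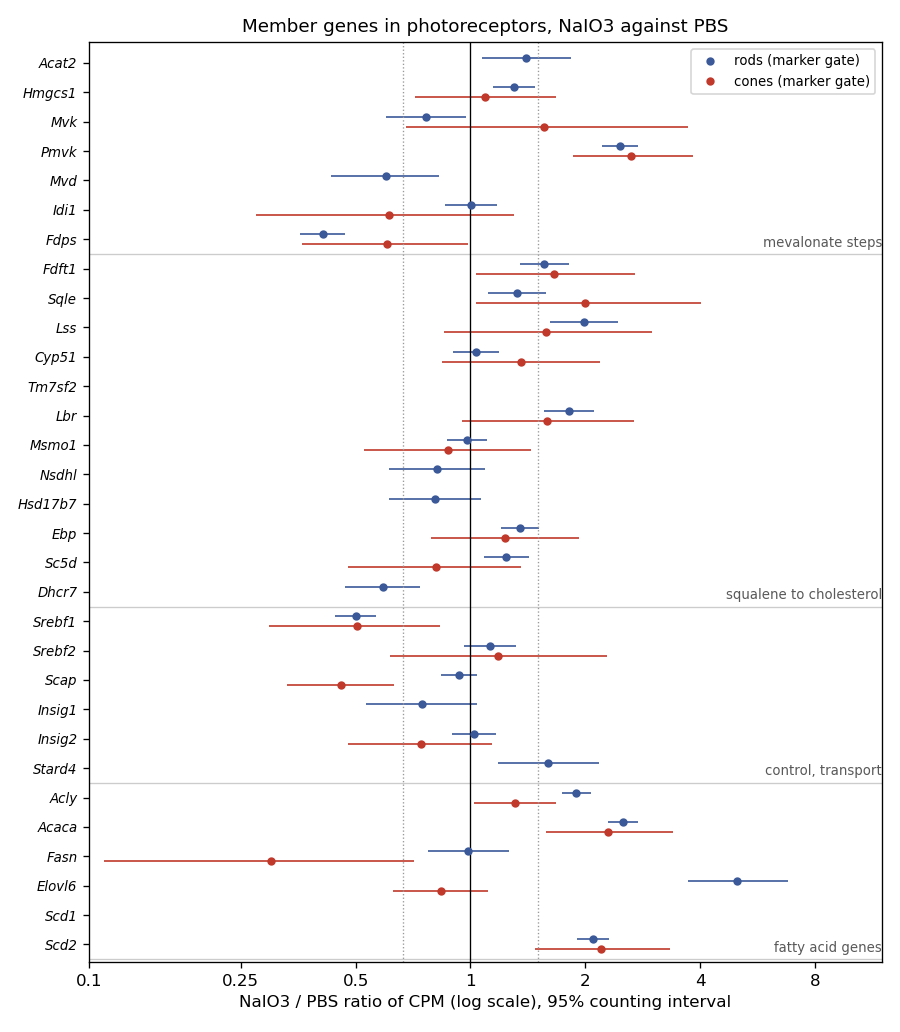
NaIO3 to PBS ratio of CPM (log axis) for each member that passed the count filter in gated rods (blue) and cones (red), grouped by role; bars are 95% counting intervals and dotted lines mark 1.5-fold. Pmvk, Acaca and Scd2 lie to the right of 1 and Fdps and Srebf1 to the left in both classes, while Elovl6 is at 4.99 in rods and 0.836 in cones.

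Each rod was also thinned to 1000 UMIs, which takes depth out of the share of cells with a UMI. Genes past 1.5-fold were chosen by their CPM in these same rods, so their shares describe the same UMIs and are no separate support. Shares were not computed over all genes, and cells are not replicates of the treatment. The share with an Acaca UMI was 5.11% (4.47 to 5.8) in PBS and 12.9% (11.9 to 14.1) in NaIO3, by exact binomial intervals. For Pmvk it was 3.08% and 8.48%, for Elovl6 0.502% and 1.79%, and for Fdps 5.75% and 2.26%. The intervals overlapped for Fdft1, at 2.64% (2.19 to 3.16) and 2.72% (2.22 to 3.30), and for Stard4, at 0.524% and 0.734%. Unthinned shares were 13% and 25.5% for Acaca and 15.3% and 6.17% for Fdps. Thinning left out 274 PBS rods and 598 NaIO3 rods that were shallower.

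Rods of the 2 libraries also differed in other ways. Their median mitochondrial share was 6.90% in PBS and 1.98% in NaIO3, and their rod markers summed to 71591 and 44331 CPM. Within cells under 2% mitochondrial UMIs, Fdps was at a ratio of 0.393, Pmvk at 2.27, Acaca at 1.95 and Elovl6 at 3.98, so these differences were present there as well. The sterol enzyme sum was not higher in those cells, at 0.983 (0.909 to 1.06), nor in rods of under 1500 UMIs, at 0.993 (0.881 to 1.12). Lss was short of 1.5-fold under 2%, at 1.24 (0.799 to 2.02), and Lbr at a share of 2 to 5%, at 1.10 (0.822 to 1.47). Most rods of each library lay in clusters of their own. In cluster 0, which held 2364 gated PBS rods and 172 gated NaIO3 rods, Acaca was at 69.5 and 195 CPM, a ratio of 2.81 (2.06 to 3.76), and Fdps at 55.0 and 18.4 CPM. Elovl6 had 1 UMI in those 172 NaIO3 rods and a ratio of 0.598 (0.0146 to 3.60), and Pmvk was at 1.09 (0.534 to 2.0), so neither was higher there beyond counting error. The sterol sum was lower there, at 0.827 (0.680 to 0.998). In cluster 1, with 1326 and 57 gated rods, the sterol sum was at 1.08 (0.856 to 1.36), Acaca at 2.10 (1.23 to 3.37) and Pmvk at 1.49 (0.674 to 2.89). In cluster 2, with 929 and 74, the sterol sum was at 1.41 (1.06 to 1.85), Acaca at 3.42 and Pmvk at 4.39 (2.41 to 7.49). In cluster 4, with 22 and 1876, the intervals of Acaca, Pmvk, Elovl6 and the sterol sum included 1, with Pmvk at 0.564 (0.303 to 1.19). The fatty acid sum was at 1.92, 2.26 and 3.38 in clusters 0, 1 and 2, with intervals above 1, and at 1.53 (0.941 to 2.69) in cluster 4.

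Cone marker RNA in rods moved between the libraries, and Elovl6 is a cone-high gene, so those values stand beside it. The 10 cone markers summed to 124 CPM in PBS rods and 1261 CPM in NaIO3 rods. Gnb3 was at 77.9 CPM of that sum in PBS rods and made up nearly all of it in NaIO3 rods, at 1255 CPM. The other 9 cone markers all had lower levels in NaIO3 rods, 7 of them with intervals below 1, and Arr3, cone arrestin, was at 10.5 and 0.508 CPM. The gate allows a rod no more than 1 cone marker, so a gated rod with a Gnb3 UMI could hold none of the other 9. Their lower levels are thus shaped by the gate and do not measure cone RNA in rods.

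Cones shared the rods' higher Pmvk, Acaca and Scd2 and lower Fdps and Srebf1. Their sterol enzymes summed to 439 CPM in PBS and 552 CPM in NaIO3, a ratio of 1.26 (1.11 to 1.43). Their fatty acid genes summed to 325 and 422 CPM, a ratio of 1.30 (1.12 to 1.5), or 1.61 (1.5 to 1.72) with cones taken from clusters. Of the 22 members that passed the filter, 8 were past 1.5-fold higher, where 26.2% of all genes were, and 5 were past 1.5-fold lower, where 13% were. With TMM scaling the counts were 4 higher and 6 lower, where 18.2% and 19.3% of all genes were. Of the gated cones, 27 of 113 PBS cells and 54 of 134 NaIO3 cells lay in rod clusters. Rod markers summed to 43472 CPM in gated PBS cones and 27798 CPM in gated NaIO3 cones, beside 71591 and 44331 CPM in gated rods. Cones taken from clusters held 60100 and 25553 CPM. The values shared with rods are thus not free of rod RNA, and its part in them was not tested.

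Pmvk was at 43.0 CPM in PBS cones and 114 CPM in NaIO3 cones, a ratio of 2.64 (1.85 to 3.82). Acaca was at 40.2 and 92.2 CPM, a ratio of 2.30 (1.57 to 3.39), and Scd2 at 36.3 and 79.9 CPM, a ratio of 2.20 (1.47 to 3.33). With a mitochondrial limit of 5%, which left 15 PBS cones, Acaca was at 1.14 and Scd2 at 1.12, while Pmvk was at 2.27. Sqle, which adds oxygen to squalene, was at 14.3 and 28.7 CPM, a ratio of 2.0 (1.03 to 4.03), or 4.77 as a mean over cells, and Fdft1 was at 1.66 (1.03 to 2.70). Acly was at 116 and 152 CPM, a ratio of 1.31 (1.02 to 1.68) by the gate and 1.82 by clusters. Mvk, Lss and Lbr were past 1.5-fold with intervals that included 1. The lower genes included Srebf1, at 48.8 and 24.6 CPM and 1.98-fold lower (1.20 to 3.37), and Fdps, at 45.9 and 27.7 CPM and 1.66-fold lower (1.02 to 2.77). Scap, the SREBP escort, was at 127 and 58.4 CPM, 2.18-fold lower (1.59 to 3.03). Fasn was at 23.9 and 7.17 CPM, 3.33-fold lower (1.40 to 9.13). Neither Scap nor Fasn was past 1.5-fold in cones taken from clusters, at 0.747 and 0.942. In the gated cones of the cone cluster, 86 in PBS and 79 in NaIO3, Scap was at 0.490 (0.329 to 0.715), Pmvk at 2.97, Acaca at 2.0, Scd2 at 2.48 and Srebf1 at 0.487, all with intervals that left out 1. Fdps was at 0.709 (0.378 to 1.29) and Sqle at 1.79 (0.726 to 4.57) there. In the gated cones of rod clusters, 27 and 54, Scap was at 0.460 (0.241 to 0.864), Pmvk at 2.10 and Acaca at 2.58. Acat2 did not pass the filter by the gate, at a ratio of 0.247, and was at 0.894 by clusters. Idi1 was lower with an interval that included 1 by the gate, and at 0.661 (0.478 to 0.902) by clusters.

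Elovl6 separated cones from rods in both libraries. It was at 109 CPM in PBS cones against 4.12 CPM in PBS rods, 26.4 times higher (19 to 37.1). In the NaIO3 library the levels were 91.1 and 20.6 CPM, 4.43 times higher (3.44 to 5.67). In cones the NaIO3 to PBS ratio was 0.836 (0.626 to 1.11), so the narrower gap went with the higher rod level. In PBS, 6 of 24 members were past 1.5-fold higher in cones than in rods, where 11.2% of all genes were, namely Elovl6, Scap, Acly, Acat2, Lss and Fasn, and Dhcr7 alone was lower, where 10.9% were. Scap was 2.23 times higher in PBS cones than in PBS rods (1.84 to 2.68), and at 58.4 and 53.3 CPM in NaIO3 cones and rods. Cone markers summed to 28441 CPM in PBS cones and 11575 CPM in NaIO3 cones, and their part in these differences was not tested.

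**Figure D2:**
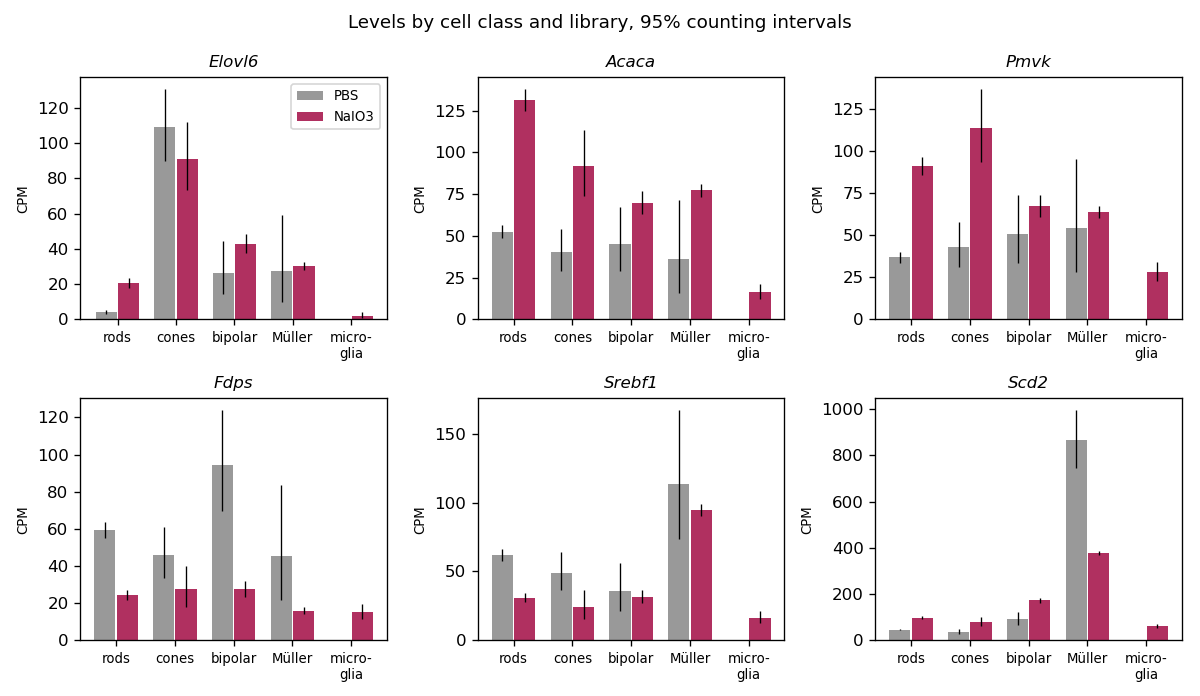
Level in CPM of 6 members in PBS (grey) and NaIO3 (red) cells of each class, with 95% counting intervals; rods, cones and microglia are by the marker gate, bipolar cells and Müller glia by clusters, and PBS microglia are left out because 13 cells held them. Elovl6 is at 109 CPM in PBS cones and 4.12 CPM in PBS rods, and Scd2 at 866 CPM in PBS Müller glia.

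Müller glia gave different results by gate and by cluster. The gate held 66 sterol enzyme UMIs in PBS and 132 in NaIO3, at 507 and 470 CPM, a ratio of 0.927 (0.685 to 1.27). The fatty acid ratio was 1.04 (0.748 to 1.45). The gated genes that passed the filter were Acly, Acaca and Scd2, and of these 3, 0 were past 1.5-fold, where 25.4% of all genes were higher and 15.3% lower. Only 8 of the 40 gated PBS cells lay in the Müller cluster, 21 were in an unnamed cluster and 11 in rod clusters. Rod markers summed to 51743 CPM in gated PBS Müller cells. Asking for 4 markers left 20 PBS and 62 NaIO3 cells and a sterol ratio of 0.540.

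The Müller cluster, led by Aqp4, Slc1a3, Abca8a and Sox9, held 32 PBS and 687 NaIO3 cells, and sterol synthesis genes were lower in its NaIO3 cells. The sterol enzymes summed to 898 CPM in PBS and 428 CPM in NaIO3, a ratio of 0.477 (0.414 to 0.552). The sensing and transport genes summed to 580 and 288 CPM, a ratio of 0.496 (0.416 to 0.595). Of 15 members that passed the filter, 9 were past 1.5-fold lower, where 26.3% of 4394 genes were, and 2 past 1.5-fold higher, where 27.4% were. The members' median ratio was 0.520, beside 1.01 for all genes tested. The filter asks for 10 expected UMIs in the smaller sum, here the 220587 UMIs of the PBS cells. Insig1, Idi1, Sqle, Sc5d, Msmo1 and Fasn reached it through their higher PBS level, and Acaca through its NaIO3 level. The count and the median are thus no separate support for the lower sums.

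Insig1, which retains the SREBP complex when sterols are plentiful and is itself a target of SREBP, had 31 UMIs in PBS and 281 in NaIO3. Its level was 141 and 13.7 CPM, 10.3-fold lower (6.86 to 14.9). Srebf2 was at 199 and 55.8 CPM, 3.58-fold lower (2.59 to 4.83). Hmgcs1, which makes HMG-CoA, was at 136 and 47.0 CPM, 2.89-fold lower (1.94 to 4.15). Idi1, the isomerase of the isoprenoid units, was at 90.7 and 21.9 CPM, 4.15-fold lower (2.51 to 6.48). Sqle was 3.30-fold lower (1.91 to 5.35), Sc5d 2.13-fold (1.19 to 3.54) and Msmo1 1.92-fold (1.07 to 3.20). By contrast Srebf1, Insig2, Scap and Pmvk had intervals that included 1. No single cell carried the PBS levels: Insig1 UMIs were in 15 of 32 PBS cells, with at most 5 in 1 cell, and Hmgcs1 UMIs were also in 15.

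Scd2 made up 82.3% of the fatty acid UMIs of PBS Müller cells. It was at 866 CPM in PBS cells and 378 CPM in NaIO3 cells, 2.29-fold lower (1.97 to 2.64). Fasn was at 72.5 and 39.4 CPM, 1.84-fold lower (1.05 to 3.01). Acly was at 49.9 and 110 CPM, a ratio of 2.21 (1.23 to 4.43), and Acaca at 36.3 and 77.3 CPM, a ratio of 2.13 (1.08 to 4.94). The sum of the fatty acid genes was at 0.606 (0.532 to 0.693) with Scd2 and at 1.39 (1.03 to 1.95) without it.

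The NaIO3 cells of this cluster were deeper and held more rod RNA. Median UMIs were 6590.5 in PBS and 26753 in NaIO3, rod markers summed to 5508 and 23435 CPM, and Müller markers to 23351 and 7445 CPM. Limiting the cells to those with rod markers under 1% of UMIs left 26 PBS and 194 NaIO3 cells. There the sterol sum was at 963 and 345 CPM, a ratio of 0.359 (0.304 to 0.426), Hmgcs1 at 0.244, Insig1 at 0.121 and Srebf2 at 0.330. Of the 8 members that passed the filter there, 6 were past 1.5-fold lower, where 26.9% of all genes were, and 0 were higher, where 17.1% were. The PBS sum was again the smaller, so this count and the one under both limits below are no separate support. Scd2 was at 0.653 (0.556 to 0.772). Acly and Fasn had ratios near those of all cells, at 2.03 (0.916 to 5.61) and 0.625 (0.366 to 1.14), and Acaca was at 1.36 (0.607 to 3.77), with intervals that included 1 on these fewer cells. With a depth of 3000 to 20000 UMIs as well, 20 and 100 cells remained, and the Müller markers were at 25716 and 16655 CPM, a ratio of 0.648. The sterol sum was then at 0.315 (0.261 to 0.382), Insig1 at 0.113 (0.0608 to 0.207), Scd2 at 0.772 (0.653 to 0.917) and Srebf1 at 1.53 (0.958 to 2.60). Of 7 members that passed the filter there, Srebf1 was higher, where 14.7% of all genes were, and Hmgcs1, Srebf2 and Insig1 were lower, where 27.1% were. The part of the lower Müller marker level in these results was not tested.

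**Figure D3:**
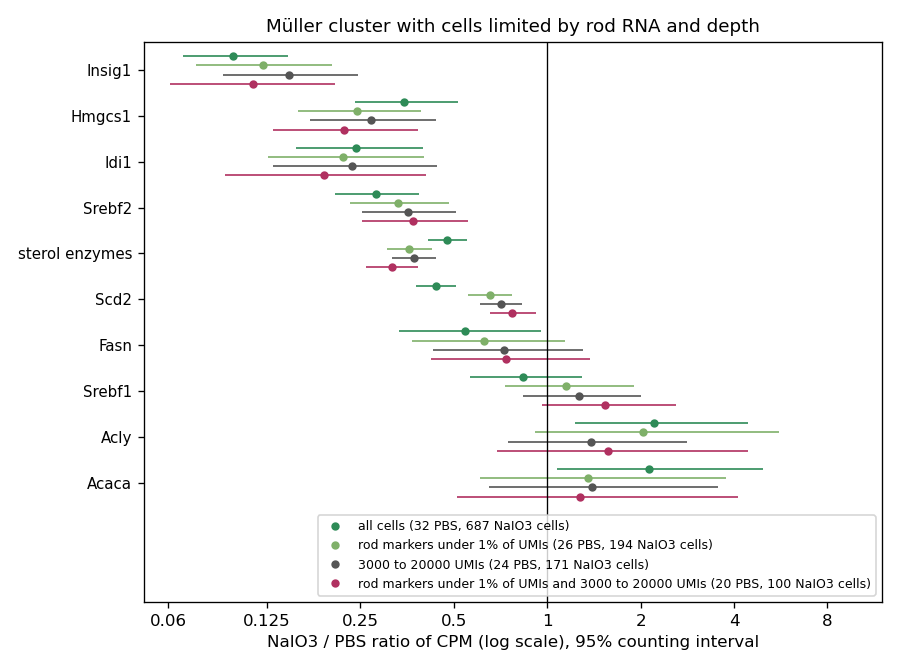
NaIO3 to PBS ratio of CPM (log axis) in the Müller cluster for 9 members and the sterol enzyme sum, over all cells and 3 limited sets of cells; bars are 95% counting intervals. Insig1, Hmgcs1, Idi1, Srebf2 and the sterol sum stay below 1 in every set, and the intervals of Acly, Acaca and Fasn include 1 in the limited sets.

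Hmgcs1, Sqle, Sc5d and Scd2 thus lay on opposite sides of 1 in Müller glia and photoreceptors. By clusters, Hmgcs1 was at 1.35 (1.21 to 1.51) in rods and 0.346 (0.241 to 0.516) in Müller glia. Sqle was at 1.37 (1.18 to 1.6) in rods and 0.303 (0.187 to 0.524) in Müller glia. These pairs of intervals do not overlap, and the difference between classes was not tested over samples. By clusters the median of all genes tested was 1.19 in rods, 1.18 in cones and 1.01 in Müller glia. All these ratios rest on the same 2 libraries.

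**Figure D4:**
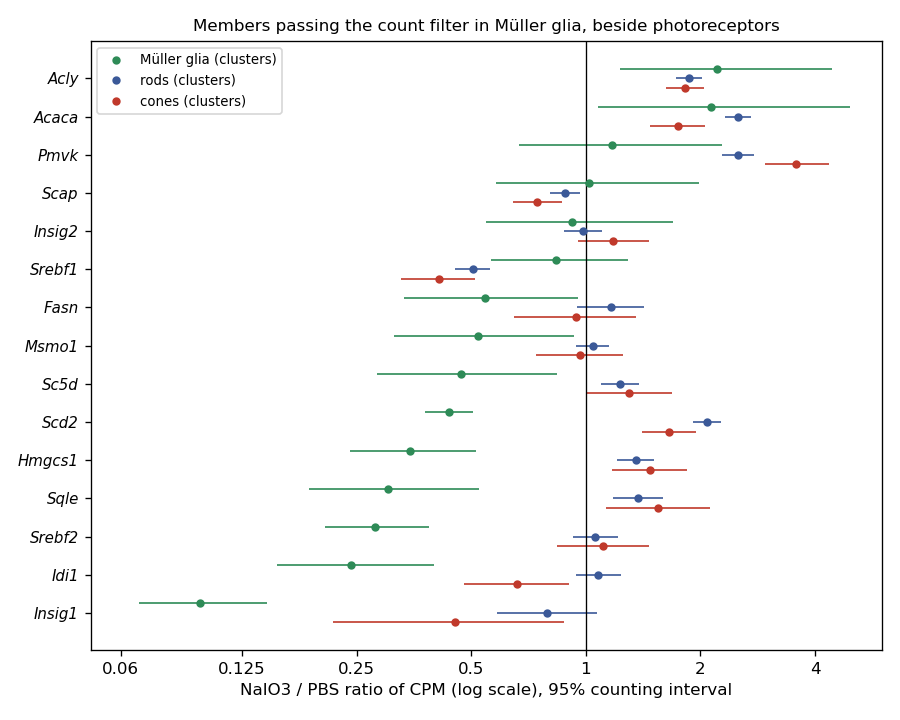
NaIO3 to PBS ratio of CPM (log axis) for the 15 members that passed the count filter in the Müller cluster, with the same genes in rods and cones taken from clusters; bars are 95% counting intervals. Insig1 is at 0.0972 in Müller glia, and Hmgcs1, Sqle and Scd2 are below 1 in Müller glia and above 1 in rods and cones.

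In the PBS library, Müller glia had the highest sterol and fatty acid sums of the clusters set beside rods here. Their sterol sum was 2.03 times that of rods (1.75 to 2.34) and their fatty acid sum 5.98 times (5.21 to 6.84). Of 15 members that passed the filter, 11 were past 1.5-fold higher than in rods, where 32.4% of all genes were, and 0 were lower, where 27.7% were. Insig1, Srebf2 and Hmgcs1 passed the filter through their Müller level, so this count is no separate support for the higher sums. Insig1 was 22.6 times higher (14.6 to 34.1), Scd2 18.3 times (15.6 to 21.5), Srebf2 8.07 times (5.77 to 11) and Hmgcs1 4.12 times (2.75 to 5.94). In NaIO3 the sterol sum of the Müller cluster was 0.795 times that of rods (0.772 to 0.819), and Hmgcs1 stood at 1.05 (0.956 to 1.16). Of 29 members there, 6 were higher, where 21.7% of all genes were, and 5 lower, where 17.7% were. The higher ones were Srebf1, Srebf2, Insig1, Insig2, Fasn and Scd2, and the lower ones Fdps, Lss, Cyp51, Ebp and Acaca. Srebf1 had a higher level in Müller glia than in rods in both libraries, 1.80 times (1.16 to 2.67) in PBS and 2.97 times (2.70 to 3.27) in NaIO3. By the gate in NaIO3, 3 of 12 members were higher than in rods, where 8.28% of all genes were, namely Srebf1, Insig2 and Scd2, and 0 were lower, where 9.25% were.

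**Figure D5:**
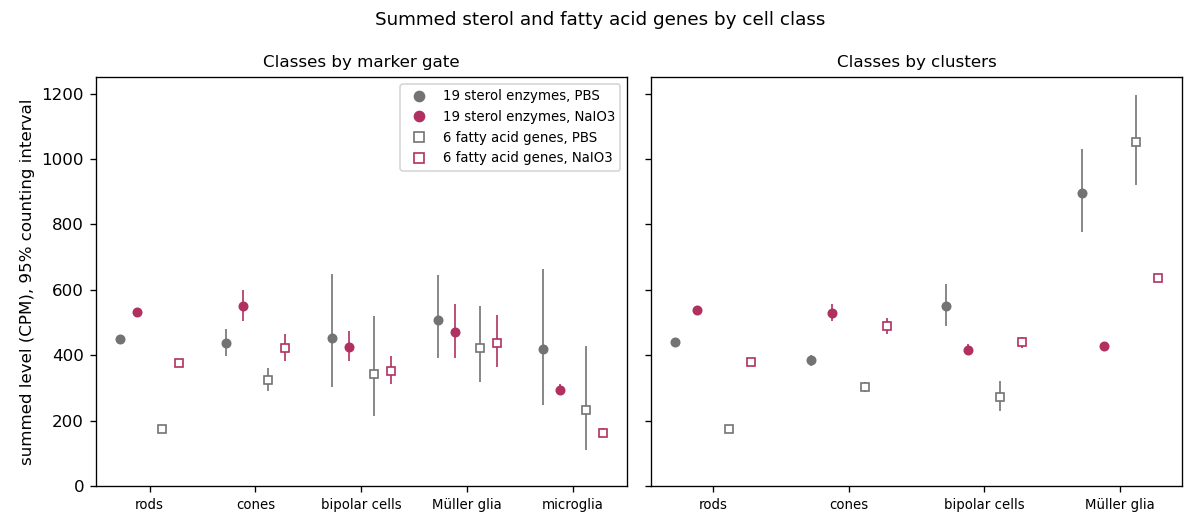
Summed level in CPM of the 19 sterol enzymes (filled circles) and the 6 fatty acid genes (open squares) in PBS (grey) and NaIO3 (red) cells of each class, by marker gate (left) and by clusters (right), with 95% counting intervals. By clusters the PBS Müller cells stand at 898 and 1052 CPM, above every other point, while gated Müller cells stand between 423 and 507 CPM.

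By clusters, bipolar cells had higher fatty acid genes and lower mevalonate enzymes in NaIO3, while the intervals by the gate included 1. The gate held 13 PBS cells, where 29 sterol UMIs gave a ratio of 0.945 (0.646 to 1.43). Gated mevalonate enzymes were at 0.904 (0.512 to 1.74) and fatty acid genes at 1.03 (0.667 to 1.67). There 0 members passed the filter, where 23.3% of all genes were higher and 19.7% lower. By clusters, 67 PBS and 616 NaIO3 cells gave mevalonate enzymes at 298 and 179 CPM, a ratio of 0.602 (0.509 to 0.716). The squalene to cholesterol enzymes were at 252 and 239 CPM, a ratio of 0.947 (0.792 to 1.14), and the fatty acid genes at 273 and 440 CPM, a ratio of 1.61 (1.36 to 1.92). Of 20 members, 6 were past 1.5-fold higher, where 23% of all genes were, and 6 past 1.5-fold lower, where 16.3% were.

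Fdps was at 94.2 CPM in PBS bipolar cells and 27.6 CPM in NaIO3 bipolar cells, 3.42-fold lower (2.44 to 4.72), and Idi1 was at 58.4 and 19 CPM, 3.07-fold lower (1.99 to 4.61). Srebf2 was at 64.0 and 24.1 CPM, 2.65-fold lower (1.77 to 3.88). Ebp, the sterol isomerase, was 2.01-fold lower (1.33 to 2.94), Mvk 1.83-fold (1.01 to 3.13) and Insig2 1.52-fold (1.05 to 2.14). On the higher side, Scd2 was at 92.3 and 174 CPM, a ratio of 1.88 (1.41 to 2.56), Lbr at 2.57 (1.23 to 6.48), Acly at 1.59 (1.18 to 2.21) and Acaca at 1.55 (1.02 to 2.44). Scap and Elovl6 were past 1.5-fold with intervals that included 1.

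The bipolar class joins clusters 7 and 8, which the libraries filled unequally, with 18 and 49 PBS cells and 359 and 257 NaIO3 cells. Fatty acid genes were higher in both, at 2.24 (1.56 to 3.35) in cluster 7 and 1.46 (1.21 to 1.78) in cluster 8. Mevalonate enzymes were lower in cluster 8, at 0.535 (0.439 to 0.657), and the interval in cluster 7 included 1, at 0.798 (0.575 to 1.13). Fdps was at 0.503 (0.264 to 1.06) in cluster 7 and 0.230 (0.157 to 0.344) in cluster 8. Idi1 and Srebf2, each on 2 PBS UMIs, were at 1.26 (0.321 to 10.9) in cluster 7, too few UMIs to set a direction, and at 0.266 and 0.332 in cluster 8. Acaca was at 0.723 (0.347 to 1.74) in cluster 7 and 2.03 (1.23 to 3.60) in cluster 8, and Srebf1 at 0.321 (0.186 to 0.583) and 5.65 (1.53 to 47.2). Scd2 was at 4.41 (2.22 to 10.3) and 1.37 (0.996 to 1.93). Rod markers were at 4294 and 1803 CPM in cluster 7 and at 5519 and 21221 CPM in cluster 8. In the class as a whole, bipolar markers summed to 14506 and 14789 CPM. The part of the rod RNA was not tested.

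Microglia could be described in the NaIO3 library alone, where all 31 genes had a UMI in the 1028 gated cells. The 13 PBS cells held 18 sterol UMIs and 0 members passed the filter between libraries, where 41.4% of all genes were higher and 28.9% lower. Rod markers summed to 30329 CPM in those PBS cells and 2537 CPM in the NaIO3 cells. Acat2, Sqle, Msmo1 and Acaca had NaIO3 to PBS intervals below 1, on 2 to 5 PBS UMIs each, and none passed the filter. In these PBS cells 1 UMI is 23.4 CPM, so members stand out as lower by drawing a few PBS UMIs. Their ratios set no direction for microglia. Msmo1 was at 93.5 and 11.4 CPM, 8.17-fold lower (2.13 to 22.6), and Acaca at 117 and 16.5 CPM, 7.10-fold lower (2.22 to 17.5).

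NaIO3 microglia had lower levels of most members than NaIO3 rods, as did most genes. The sterol sum was at 295 CPM against 532 CPM, a ratio of 0.555 (0.520 to 0.592), and the fatty acid sum at 164 against 378 CPM, a ratio of 0.435 (0.399 to 0.474). Of 28 members, 19 were past 1.5-fold lower, where 51.9% of all genes were, and 1 was higher, where 25.5% were. With TMM scaling 10 of 30 were lower, where 32.1% of all genes were, and 7 higher, where 41.2% were, and the sterol ratio was 0.973. The gene on the higher side was Insig1, at 10.0 against 5.16 CPM, a ratio of 1.95 (1.25 to 2.98). Acaca was 7.99-fold lower than in rods (6.16 to 10.5), Lss 6.04-fold (3.47 to 11.5), Sqle 4.79-fold (2.97 to 8.19) and Elovl6 10.5-fold (5.03 to 26.5). Lbr and Ebp went against this trend, with Lbr at 55.8 against 39.3 CPM, a ratio of 1.42 (1.20 to 1.68), and Ebp at 59.4 against 54.6 CPM, a ratio of 1.09 (0.928 to 1.27). Acly, Scd2, Ebp, Lbr, Hmgcs1 and Pmvk had the most UMIs of the members in these cells.

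The members with the most UMIs in NaIO3 cells overlapped between gated classes. Scd2, Acly, Pmvk and Acaca were among the top 6 in rods, cones, bipolar cells and Müller glia. Ebp and Scap completed the 6 in rods, Elovl6 and Scap in cones, Insig2 and Lbr in bipolar cells, and Insig2 and Srebf1 in Müller glia.

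In NaIO3, 7 members were lower in gated bipolar cells than in rods and 1 in gated cones. In bipolar cells 7 of 20 were past 1.5-fold lower than in rods, where 19.2% of all genes were, namely Idi1, Sqle, Cyp51, Msmo1, Ebp, Scap and Acaca (the interval of Idi1 included 1), and Scd2 alone was higher, where 17% were. In cones 2 of 21 were higher, Mvk and Elovl6, where 7.42% of all genes were, and Idi1 alone was lower, where 8.61% were. Scd2 in bipolar cells was at 150 CPM against 98.5 CPM in rods, a ratio of 1.52 (1.24 to 1.84). By clusters, bipolar cells had Mvk, Fasn, Elovl6 and Scd2 higher and Sqle, Msmo1, Ebp and Acaca lower than rods, 4 and 4 of 29, where 20% and 17.2% of all genes were. Cones by clusters had Scap, Acly and Elovl6 higher and Acat2 and Msmo1 lower, 3 and 2 of 28, where 9.06% and 7.06% were.

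Other genes of these pathways were described from 4 lists of 51 genes in all. In rods 35 passed the filter, 11 were past 1.5-fold higher and 1 was past 1.5-fold lower, beside 27.8% and 9.59% of all genes. The prenyl branch had 1 of 7 higher, SREBP processing 2 of 5, sterol fate 3 of 7 with 1 lower, and fatty acid supply and elongation 5 of 16. Abca1, which exports cholesterol, was at 25.1 and 65.2 CPM, a ratio of 2.59 (2.28 to 2.96), and Npc1, which releases cholesterol from lysosomes, was at 48.2 and 114 CPM, a ratio of 2.37 (2.16 to 2.61). Oxsm, a mitochondrial fatty acid synthase, was at 2.47 (1.88 to 3.26). Nr1h2, the sterol-sensing receptor LXR beta, was at 55.3 and 29.7 CPM, 1.86-fold lower (1.64 to 2.12). Hsd17b12 and Coq2 were lower by less than 1.5-fold, both at 0.740.

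In the Müller cluster 20 of the 51 passed the filter, with 7 past 1.5-fold higher and 6 past 1.5-fold lower, beside 27.4% and 26.3% of all genes. Abca1 had 4 UMIs in PBS and 4296 in NaIO3, at 18.1 and 209 CPM, a ratio of 11.5 (4.49 to 42.3). Me1, which makes NADPH for lipid synthesis, was at 13.6 and 138 CPM, a ratio of 10.1 (3.47 to 49.2), on 3 PBS UMIs. Elovl2, which lengthens polyunsaturated fatty acids, was at 4.53 and 88.2 CPM, a ratio of 19.5 (3.49 to 769), on 1 PBS UMI. Thrsp, a lipogenic gene, was at 150 and 26.8 CPM, 5.59-fold lower (3.81 to 7.94). Hsd17b12 was 2.61-fold lower (1.91 to 3.49) and Nr1h2 2.39-fold (1.41 to 3.81). By the gate 11 passed, 2 were past 1.5-fold higher and 0 lower, beside 25.4% and 15.3% of all genes, and Me1 was at 138 and 221 CPM, a ratio of 1.6 (0.932 to 2.87). Gated Hacd3 was at 2.05 (0.887 to 5.52), Acsl3 at 1.39 (1.04 to 1.88), Fnta at 0.734, Ggps1 at 0.888 and Npc1 at 0.891.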

How the data were processed

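The authors deposited, for each library, a Cell Ranger matrix of UMI counts (version 3.0.2 per the file headers), unnormalized and with empty droplets filtered out. Reads were placed on mm10, per the submitters' processing notes. Cells were kept with at least 500 UMIs, 300 genes and at most 15% mitochondrial UMIs. Scrublet in scanpy 1.11.5 (expected rate 6%) marked 180 NaIO3 cells, which were removed, and 0 PBS cells, which shows no working call in PBS. Clusters were made with 2000 variable genes, 30 components, 15 neighbours and Leiden resolution 0.8 (igraph 0.11.9). A cluster took a name when its top class reached 2000 CPM of markers. The immune clusters 12 and 16 had no microglia marker among their 10 leading genes, and cluster 16 had 2 T or NK markers. Microglia were therefore read by the gate, which allows at most 1 marker of another class. Most gated NaIO3 microglia, 1010 of 1028, still lay in these clusters.

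UMI counts were summed per class and library, without length correction. Ratios have exact conditional binomial 95% intervals, levels exact Poisson ones and shares exact binomial ones. With 1 library per group there is no test and no p-value. A member was called past 1.5-fold by size alone. The members, gene lists and markers were chosen with earlier results of these data known. Named genes were, in each class, the 6 members with the highest NaIO3 CPM and members past 1.5-fold whose interval leaves out 1, with the 3 highest and 3 lowest other pathway genes in Müller glia and rods; all other members are accounted for by group. Counts of Acat2 and Fdps may be split with near-identical copies. TMM factors came from edgeR 4.0.16. Other tools were Python 3.11.15, numpy 2.4.6, scipy 1.17.1, pandas 2.3.3, anndata 0.12.19 and R 4.3.3. The ratio and call steps were tested on simulated data. Alternatives were another scaling, denominator, cell weight, gate, cell filter, mitochondrial limit, doublet treatment, fold and count filter. Limits on rod RNA and depth in the Müller cluster, and the splits of bipolar cells and gated cones by cluster, were chosen after seeing the data.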

Additional observations from a re-analysis of the deposited data

Results flagged for a closer look

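With cells taken from clusters, some members lay on opposite sides of 1 in a pair of classes, each with intervals that leave out 1. How many of all genes did so was not counted. The median of all genes tested was 1.19 in rods, 1.18 in cones, 1.06 in bipolar cells and 1.01 in Müller glia. A ratio of 1 is thus not the middle of the rod or cone ratios. None of the differences between classes was tested, because each class has 1 PBS and 1 NaIO3 sum. Hmgcs1 was at 1.35 in rods and 1.47 in cones, and at 0.346 in Müller glia. Sqle was at 1.37 in rods and 1.54 in cones (1.545 before rounding), and at 0.303 in Müller glia. Sc5d was at 1.23 in rods and 1.30 in cones, and at 0.469 in Müller glia. Scd2 was at 2.08 in rods, 1.65 in cones and 1.88 in bipolar cells, and at 0.437 in Müller glia (0.4365 before rounding). Ebp, the sterol isomerase, was at 1.36 in rods and 1.36 in cones, and at 0.497 in bipolar cells.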

How the results depend on the processing

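No paired analysis was possible because each group has 1 library. Every value rests on 1 PBS and 1 NaIO3 library, so intervals cover counting error only, and depth limits Müller glia, bipolar cells and PBS microglia most. The direction of 19 of the 20 rod members whose interval left out 1 was the same under every alternative run, and of all 11 such cone members and 4 such microglia members. The microglia members did not pass the filter and rest on a few UMIs of 13 PBS cells, so their direction is not settled by this. Acat2 in rods turned to 0.963 at a mitochondrial limit of 5%. Of the values for sums and counts, 243 stayed within their error or 1.5 times and 95 moved. The cause was not tested. Sums below are NaIO3 over PBS unless set against rods within NaIO3.

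With TMM scaling, sterol sums were 1.04 in rods, 1.11 in cones and 1.40 in microglia, the rod fatty acid sum was 1.90, and microglia against rods were 0.973 for sterol enzymes and 0.763 for fatty acid genes. Counts were then 4 of 22 higher in cones, where 18.2% of all genes were. Against rods, 0 of 20 were higher in bipolar cells, where 15.7% of all genes were. In Müller glia 4 of 13 were lower than in rods, where 17.3% were. In microglia 7 of 30 were higher and 10 lower than in rods, where 41.2% and 32.1% were. Without mitochondrial genes and rod markers in the total, rods were at 1.08 for sterol enzymes and 1.97 for fatty acid genes. In cones 5 of 22 members were then higher, where 21.2% of all genes were.

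As means over cells, sterol sums were 0.679 in Müller glia, 0.626 in bipolar cells and 1.11 in rods, and the rod fatty acid sum was 2.03. Against rods, the fatty acid sum was 1.39 in Müller glia and 0.365 in microglia, and the microglia sterol sum 0.444. Counts were 1 higher and 1 lower of 4 in Müller glia, where 26.8% and 23% of all genes were. In cones 3 of 22 were lower, where 16% were, and in rods 7 of 30, where 11.4% were. Against rods, 0 of 20 were higher in bipolar cells, where 18.8% were. In cones 4 of 20 were higher and 2 lower than in rods, where 9.84% and 12.5% were. In Müller glia 2 of 11 were lower than in rods, where 26.3% were.

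With 4 markers in the gate, the Müller sterol sum was 0.540, and 0.674 against rods, and the cone fatty acid sum against rods was 1.24. Against rods, Müller glia then had 1 higher and 2 lower of 3, where 10.5% and 17.8% of all genes were. Cones had 4 higher and 2 lower of 20, where 9.44% and 12.4% were. With cells of at least 1500 UMIs and 800 genes, microglia had 2 of 28 higher than in rods, where 26.5% were. Müller glia then had 1 of 9 lower than in rods, where 7.99% were. Keeping doublet calls moved none of these sums or counts past its error or 1.5 times.

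At a mitochondrial limit of 5%, with 1 PBS bipolar cell and 15 PBS cones left, sterol sums were 0.115 in bipolar cells and 1.02 in rods. Fatty acid sums were 0.675 in Müller glia, 0.202 in bipolar cells and 1.87 in rods. In cones 0 members passed the filter, so the counts were 0 higher and 0 lower, where 22.5% and 16.5% of all genes were. In rods 7 of 30 were lower, where 16.9% were. Against rods, cones had 1 higher and 2 lower of 20, where 6.76% and 6.68% were. Bipolar cells had 2 of 18 lower than in rods, where 13.9% were.

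With cluster classes, sterol sums were 0.477 in Müller glia, and 0.671 in microglia against rods. Fatty acid sums were 0.606 in Müller glia and 1.61 in cones. Against rods they were 1.68 in Müller glia, 1.16 in bipolar cells, 1.29 in cones and 0.493 in microglia. Counts were 2 higher and 9 lower of 15 in Müller glia, where 27.4% and 26.3% of all genes were. In bipolar cells 6 of 20 were higher and 6 lower, where 23% and 16.3% were. Against rods, 6 of 29 were higher and 5 lower in Müller glia, where 21.7% and 17.7% were. In bipolar cells 4 of 29 were higher and 4 lower than in rods, where 20% and 17.2% were. In cones 2 of 28 were lower than in rods, where 7.06% were. In microglia 3 of 29 were higher than in rods, where 28.3% were. The microglia clusters include cluster 16, with its T or NK markers.

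At 2-fold, counts were 3 higher and 2 lower of 22 in cones, where 11% and 4.65% of all genes were. In rods 4 of 29 were higher and 1 lower, where 10.7% and 3.7% were. Against rods, 1 of 12 was higher in Müller glia, where 4.06% were, and 1 of 21 in cones, where 3.81% were. In bipolar cells 0 of 20 were higher and 2 lower than in rods, where 11.7% and 8.4% were. In microglia 0 of 28 were higher and 12 lower than in rods, where 21.3% and 41.7% were. With no count filter, a gene still needed 1 UMI in each of the sums compared, so members with no PBS UMI were left out. In Müller glia 3 of 25 were then higher and 6 lower, where 26.1% and 28.2% of all genes were. In bipolar cells 2 of 23 were higher and 10 lower, where 24.1% and 34.9% were. In microglia 2 of 15 were higher and 12 lower, where 16.5% and 56.1% were. There 1 PBS UMI is 23.4 CPM, so members entered only at a high PBS level and the lower count is shaped by that. Against rods, 7 of 30 were higher and 4 lower in Müller glia, where 26.5% and 15% were. In bipolar cells 2 of 30 were higher than in rods, where 27.6% were. In cones 3 of 30 were lower than in rods, where 12.3% were.

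In the Müller cluster, rod markers under 1% of UMIs gave 0.359 for sterol enzymes and 0.723 for fatty acid genes. A depth of 3000 to 20000 UMIs gave 0.371 and 0.767, and both limits gave 0.315 and 0.808. In bipolar cluster 7 the fatty acid sum was 2.24, Idi1 and Srebf2 turned to 1.26 each and Acaca to 0.723. In gated cones that lay in rod clusters the fatty acid sum was 1.51.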
